A study of Mus musculus with 2 samples.

Results

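Endothelial cells, which line the blood vessels, were read out in single-cell libraries of mouse cerebellum at embryonic stage E16.5. They were taken as the cells with at least 2 UMIs of Cldn5, a tight junction claudin of brain endothelium, and at least 1 UMI of Pecam1 and Cdh5 together, the platelet-endothelial adhesion molecule and VE-cadherin. A UMI (unique molecular identifier) marks 1 captured RNA molecule. Of the cells with at least 1000 UMIs, 500 detected genes and at most 10% mitochondrial UMIs, 229 of 16482 passed in the mutant library and 204 of 16812 in the control library, 433 of 33294 in all. The mutant embryos carried Blbp-cre with a floxed exon 3 on 1 allele of Ctnnb1 and floxed Smarca4 on both alleles, written Ctnnb1(ex3)fl/wt and Smarca4fl/fl. The control embryos were cre-negative, with floxed alleles not given in the sources used here. Each library was a pool of 3 samples, so there was 1 library per genotype, nothing was tested, and every interval below covers counting error only, at 95%, and not the spread between embryos.

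Vessels of the brain acquire the blood-brain barrier under the control of canonical Wnt signalling. Wnt7a, Wnt7b and norrin, released by neural and glial cells, act on frizzled receptors with the co-receptors Lrp5 and Lrp6, the adhesion receptor Adgra2 and its partner Reck, and stabilised beta-catenin, the product of Ctnnb1, then drives genes such as Lef1 and Axin2 together with barrier transporters. The Blbp promoter drives cre in radial glia and other neural progenitors, and endothelial cells descend from mesoderm, outside that lineage. In the mutant, cells of the neural lineage hold an excision that stabilises beta-catenin and lose Smarca4, an ATPase of the BAF chromatin remodelling complex.

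The RNA of secreted Wnt antagonists in the cells other than endothelial cells differed between the libraries. These values are RNA summed over dissociated cells and show neither protein nor nearness to vessels. In all kept cells other than endothelial cells, the 12 antagonist genes together stood at 454 CPM in the mutant library and at 90.6 CPM in the control library, where CPM is UMIs per 1000000 UMIs. Wif1, a secreted Wnt-binding inhibitor, was at 302 CPM against 2.44 CPM in those cells, and Notum, a secreted lipase that removes the lipid of Wnt proteins, at 52.7 CPM against 0.508 CPM. The ligand list (Wnt7a, Wnt7b, Ndp, Vegfa, Angpt1, Tgfb1 and Shh) stood at 60.8 CPM against 90.7 CPM.

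The label was checked on 10 endothelial genes that the selection did not use: Flt1, Kdr, Tie1, Tek, Emcn, Esam, Erg, Egfl7, Eng and Robo4. An endothelial cell held a median of 39 UMIs of these genes in both libraries, spread over a median of 9 of them in the mutant and 8 in the control library. At least 5 such UMIs were found in 99.1% of mutant and 97.1% of control endothelial cells, against 1.08% and 0.899% of the other cells that were not near the thresholds, and against 0% and 1.96% of microglia and macrophages. The cells just inside both thresholds were 1 in the mutant and 4 in the control library, with a median of 21 and 3 of these UMIs. Just outside, 11 mutant and 7 control cells had 1 Cldn5 UMI, with medians of 8 and 4, and 14 mutant and 9 control cells had Cldn5 but neither Pecam1 nor Cdh5, with medians of 5 and 6.

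Endothelial cells made up 1.39% of the kept mutant cells (exact binomial interval 1.22% to 1.58%) and 1.21% of the kept control cells (1.05% to 1.39%), a ratio of 1.15 (0.944 to 1.39). Mural cells, the pericytes and smooth muscle cells that wrap vessels, numbered 416 in the mutant and 388 in the control library, so there were 0.550 and 0.526 endothelial cells per mural cell. Fibroblasts of the meninges numbered 542 and 577, and microglia and macrophages 108 and 153. Endothelial cells held a median of 10161 UMIs (1168 to 131568) in the mutant and 9668 UMIs (1343 to 40358) in the control library, and 2897647 and 2271182 UMIs in all. No barcode was shared between the mutant and control endothelial cells.

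Several measures of the libraries moved with genotype and stand beside the results that follow. The deepest mutant endothelial cell alone held 131568 UMIs, 4.54% of the mutant total, and the next held 47342; it carried 174 UMIs of 8 genes of the mutant lesion, a list chosen on these data. Those 8 genes (Wif1, Fstl4, Adamts19, Notum, Hpse2, Rgs6, Lgr6 and Shox2) had 1632 UMIs in mutant and 131 UMIs in control endothelial cells, and 63.1% of the mutant UMIs lay in 10 cells, while 108 of 229 mutant and 132 of 204 control cells had none. The Scrublet doublet caller marked 35 mutant (15.3%) and 33 control (16.2%) endothelial cells, against 3.75% and 5.01% of all kept cells. A wide removal of cells carrying RNA of pericytes, microglia, fibroblasts, lesion cells, neurons, choroid plexus or red cells left 171 mutant and 159 control endothelial cells. Its lesion gene criterion was met by 29 mutant and 0 control cells, so that criterion acted on the mutant library only. Xist, expressed from the inactive X chromosome of females, had a UMI in 30.6% of mutant and 56.9% of control endothelial cells, and the Y-linked Ddx3y in 103 of 229 and 51 of 204. The Y-linked Uty had one in 37.1% and 21.6%, Eif2s3y in 28.4% and 21.1% and Kdm5d in 14.0% and 11.8%. In the other kept cells the libraries differed less, with Xist in 37.2% of mutant and 44.0% of control cells and Ddx3y in 25.6% and 25.4%. Other lists of cell types stood, in mutant and control endothelial cells, at 525 and 1187 CPM for 7 neuronal genes, 304 and 2872 CPM for 7 choroid plexus genes (3606 of the 6523 control UMIs in 1 cell), 127 and 37.4 CPM for 11 mural genes (291 of the 367 mutant UMIs in 1 cell), 155 and 76.6 CPM for 9 fibroblast genes and at 32 and 22 UMIs for 9 microglia and macrophage genes. Their part in the results was not tested.

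Genes that mark endothelium were present in both libraries. Of those given below with values, Adgrl4, Cdh5 and Pecam1 were somewhat higher in the mutant library, and the others were closer to their control level. Genes at 100 CPM or more in both libraries were ranked by the ratio of endothelial to other cells. A gene below that level in either library could not enter. The highest included the VEGF receptor Flt1 at 938 CPM in mutant cells and 907 CPM in control cells and the glutamine transporter Slc38a5 at 443 and 448 CPM. Also among them were the adhesion receptor Adgrl4 at 696 and 494 CPM, Cd93 at 306 and 291 CPM and Icam2 at 234 and 247 CPM. Abcb1a, the efflux pump P-glycoprotein, stood at 170 and 173 CPM. Cldn5 ranked among them too, at 1972 and 2041 CPM, but the selection required it. The selection genes Cldn5, Pecam1 (325 and 273 CPM) and Cdh5 (379 and 307 CPM) are given as a description. Ctla2a, Pglyrp1, Cd34, Gimap6, Ptprb, Tmem252, Vwa1 and Ly6c1 completed the 15 highest, each below 6 CPM in the other cells of both libraries. Of 23 pan-endothelial genes none differed by the size rule described next, and their summed UMIs had a ratio of 1.08 (1.06 to 1.10); after the wide removal Clec14a, an endothelial lectin, was called higher.

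The comparison took the 9516 genes that reached 10 CPM in at least 1 library, and 1 CPM was added to both sides before each log2 ratio. A gene was called when it differed by at least 1.5-fold and its counting interval stayed on 1 side of 1. That gave 514 genes called higher, 5.40% of those compared, and 441 called lower, 4.63%, with a median log2 ratio of 0.04 over all genes. Those shares are the ones to set beside the calls of each list below. After the wide removal 307 of 8996 genes were called higher (3.41%) and 319 lower (3.55%), and 164 of the 514 and 152 of the 441 were called the same way. Without the deepest mutant cell 471 of 9512 genes were called higher (4.95%) and 439 lower (4.62%). Of the 514 genes, 325 stood lower in mutant endothelial cells than in the other mutant cells, and 109 had at least 50% of their mutant UMIs in 3 cells. The same shares over all 9516 genes compared are not given here, so these counts do not set the called genes apart.

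The shear stress and immediate early genes carried the clearest difference. Klf2 and Klf4 are Krüppel-like transcription factors that laminar flow and other stimuli induce in endothelium, and Klf6 belongs to the same family. Klf2 stood at 1855 CPM (Poisson interval 1805 to 1905) in mutant cells and 966 CPM (926 to 1007) in control cells, a ratio of 1.92 (1.83 to 2.02), and Klf2 UMIs were present in 204 of 229 mutant and 174 of 204 control cells. Per 10000 UMIs of a cell, the median Klf2 count was 11.3 in mutant and 5.60 in control cells, although the ranges overlapped from 0 upward. Klf4 stood at 362 CPM against 167 CPM (ratio 2.16, 1.92 to 2.44), and Klf6 at 342 CPM against 160 CPM (2.14, 1.89 to 2.42). The deepest mutant cell held 1065 of the 5374 Klf2 UMIs, and without it the ratios were 1.61 for Klf2, 1.68 for Klf4 and 1.82 for Klf6. After the wide removal the ratios were 1.72 for Klf2, 1.82 for Klf4 and 2.02 for Klf6.

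Immediate early genes, which cells switch on within minutes of a stimulus or of tissue dissociation, were higher as a group. Of 14 genes, 8 were called higher and none lower, with a median log2 ratio of 0.64 against 0.04 for all genes compared. Over all genes compared 5.40% were called higher. The list held 5448 CPM in mutant cells and 3257 CPM in control cells, a ratio of 1.67 (1.63 to 1.72). Atf3, a stress-induced transcription factor, was at 322 CPM against 131 CPM (ratio 2.46, 2.16 to 2.81). The nuclear receptor Nr4a1 was at 139 CPM against 62.5 CPM (2.23), the AP-1 subunit Fos at 866 CPM against 401 CPM (2.16) and its partner Jun at 1271 CPM against 686 CPM (1.85). Jund, Fosb, Hspa1a and the mRNA decay factor Zfp36 were also called higher, while Junb, Egr1, Ier2, Ier3, Hspa1b and Dusp1 were not, with log2 ratios of 0.05 to 0.58. Without the deepest mutant cell the list's ratio was 1.48 and after the wide removal 1.51, with 5 genes called higher in each, and Fosb and Zfp36 were called in neither, at log2 ratios of 0.34 and 0.37 without that cell. Jund was not called without that cell (0.56) and Hspa1a not after the wide removal (0.08).

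**Figure D1:**
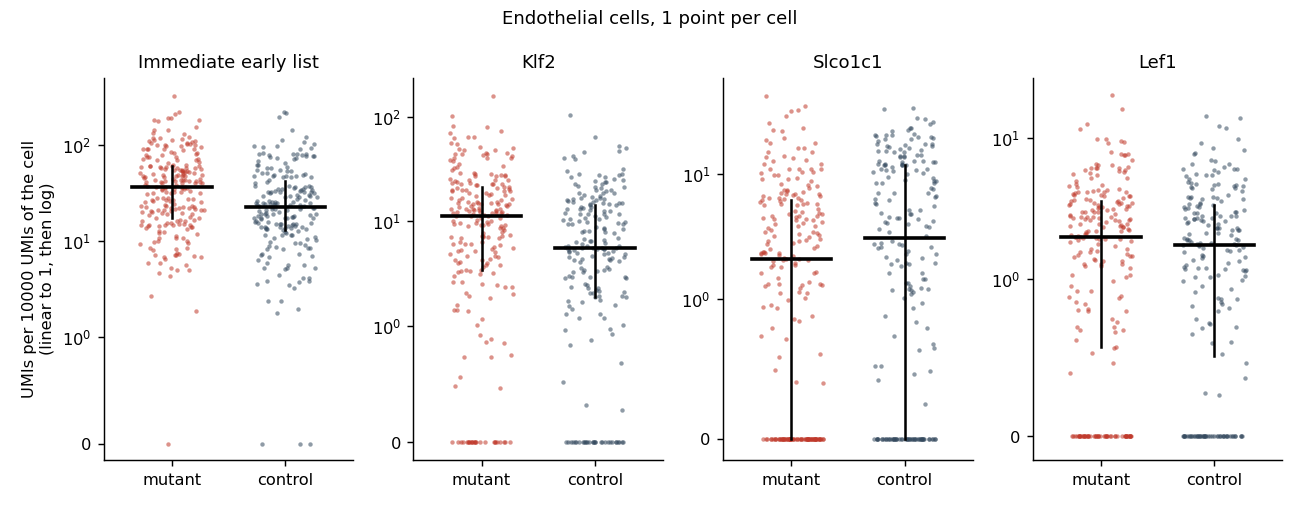
UMIs per 10000 UMIs of each endothelial cell (vertical axis, linear up to 1 and logarithmic above) in mutant and control libraries, with 1 point per cell; the thick bar is the median and the thin line the middle 50% of cells. The immediate early list had a median of 36.0 in mutant and 22.7 in control cells, Klf2 of 11.3 and 5.60, Slco1c1 of 2.09 and 3.05 and Lef1 of 1.99 and 1.75, and the points of both libraries overlapped in each panel.

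Both lists also had summed ratios above 1 in other cell classes, though not every gene did. For the immediate early list the ratio was 1.33 in mural cells, 1.61 in meningeal fibroblasts, 1.55 in microglia and macrophages and 1.06 in all kept cells other than endothelial cells. For the shear stress and vasoregulation list it was 1.65 (1.59 to 1.71) in endothelial cells, where Klf2 held most of the list's mutant UMIs. Without the deepest mutant cell it was 1.43 (1.38 to 1.49) and after the wide removal 1.47 (1.41 to 1.54). It was 1.33 in mural cells, 2.14 in fibroblasts, 2.21 in microglia and macrophages and 1.63 in all kept cells other than endothelial cells. In mural cells Atf3 had a ratio of 0.845 (0.713 to 1.001), Nr4a1 of 1.07 (0.872 to 1.31) and Zfp36 of 1.09 (0.925 to 1.28). Beyond Klf2 and Klf4 that list had thrombomodulin (Thbd, 20.7 CPM against 11.4 CPM) called higher and the potassium channel Kcnj2 (19.3 CPM against 29.9 CPM) called lower, of 10 genes compared. Nos3, the endothelial nitric oxide synthase, was at 92.5 CPM against 69.1 CPM, and endothelin (Edn1) at 99.05 CPM against 74.9 CPM, both short of the call. Thbd and Kcnj2 were called by small counts, 60 against 26 UMIs and 56 against 68 UMIs, and without the deepest mutant cell neither was called, at log2 ratios of 0.47 and -0.57.

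**Figure D2:**
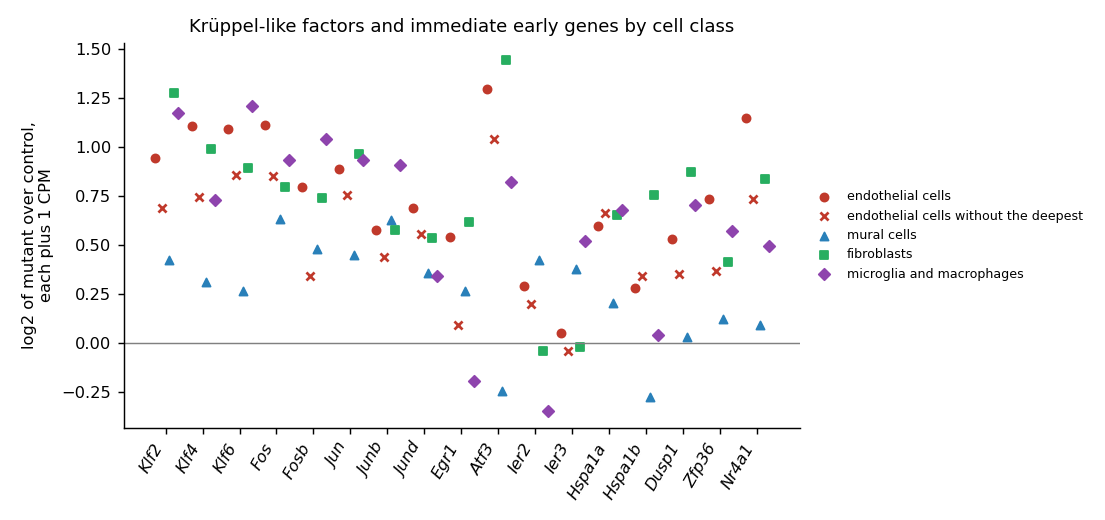
Log2 ratio of mutant over control, each plus 1 CPM (vertical axis), of Klf2, Klf4, Klf6 and the 14 immediate early genes (horizontal axis), with 1 symbol per cell class. Klf2 was higher in the mutant library in endothelial cells, with and without the deepest mutant cell, in mural cells, in fibroblasts and in microglia and macrophages, while Atf3 had a log2 ratio of -0.24 in mural cells.

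The promoters of 4 genes that were called higher together, picked after their values were seen, are shown from RefSeq on GRCm38.p6, 250 bases before to 50 bases after the start, as 5′ to 3′ on the gene's strand. They lie at chr8:72318812-72319111 (plus strand) for Klf2, chr4:55532426-55532725 (minus strand) for Klf4, chr12:85473640-85473939 (plus strand) for Fos and chr1:191183284-191183583 (minus strand) for Atf3. Capitals mark CTA and TAG with 4 bases between them, a form of the site of MEF2 factors, matched on either strand.
Klf2: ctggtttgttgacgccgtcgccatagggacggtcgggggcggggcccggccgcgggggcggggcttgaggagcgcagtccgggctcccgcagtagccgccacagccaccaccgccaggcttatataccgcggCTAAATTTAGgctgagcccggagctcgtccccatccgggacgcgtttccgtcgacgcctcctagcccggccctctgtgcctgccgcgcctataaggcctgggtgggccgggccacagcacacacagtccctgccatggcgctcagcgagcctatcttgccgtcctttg
Klf4: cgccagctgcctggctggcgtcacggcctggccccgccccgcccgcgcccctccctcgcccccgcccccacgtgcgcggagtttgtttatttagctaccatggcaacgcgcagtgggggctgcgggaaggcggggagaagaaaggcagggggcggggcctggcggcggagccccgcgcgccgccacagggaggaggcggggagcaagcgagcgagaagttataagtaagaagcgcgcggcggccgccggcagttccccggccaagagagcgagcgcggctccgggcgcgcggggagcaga
Fos: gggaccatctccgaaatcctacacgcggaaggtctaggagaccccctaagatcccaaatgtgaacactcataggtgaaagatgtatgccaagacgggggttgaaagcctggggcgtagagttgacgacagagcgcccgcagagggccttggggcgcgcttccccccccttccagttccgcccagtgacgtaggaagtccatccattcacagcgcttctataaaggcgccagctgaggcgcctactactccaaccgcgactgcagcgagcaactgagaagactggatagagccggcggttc
Atf3: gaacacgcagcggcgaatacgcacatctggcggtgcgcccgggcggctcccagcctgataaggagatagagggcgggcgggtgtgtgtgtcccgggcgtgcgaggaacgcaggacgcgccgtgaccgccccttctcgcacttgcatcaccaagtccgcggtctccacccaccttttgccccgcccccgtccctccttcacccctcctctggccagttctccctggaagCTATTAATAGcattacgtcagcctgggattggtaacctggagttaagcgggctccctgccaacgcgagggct
That motif was present in the windows of Klf2 and Atf3 and in 3.69% of the 32851 RefSeq promoter windows. In all 4 motifs were searched, also chosen with the values known. The letters TGACGTCA (a cAMP response element, in 1.79% of windows), TGANTCA (an AP-1 site, in 7.81%) and the consensus serum response element core (in 0.0639%) were matched on both strands too and were in none of the 4 windows. Only these letters within these windows were searched. The result therefore does not show that sites of variant form, or farther from the start, are absent.

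The barrier transporters were close to their control level except for a few. Of 18 transporters compared, 1 was called lower and none higher, with a median log2 ratio of -0.16 and a UMI ratio of 0.930 (0.910 to 0.951). Over all genes compared 5.40% were called higher and 4.63% lower, so the number of calls does not set the transporters apart. Slc2a1, the glucose transporter GLUT1, stood at 901 CPM (867 to 937) in mutant cells and 856 CPM (818 to 895) in control cells. Mfsd2a, the lysophospholipid transporter that limits transcytosis, was at 335 CPM against 397 CPM (ratio 0.846, 0.771 to 0.927), Abcg2 at 298 CPM against 288 CPM and the amino acid transporter Slc7a5 at 649 CPM against 602 CPM. Slc16a1, the lactate and ketone transporter MCT1, was the one called lower, at 33.5 CPM against 65.2 CPM (ratio 0.514, 0.393 to 0.668), from 97 UMIs in 59 mutant cells and 148 UMIs in 64 control cells. Slco1c1, a thyroxine transporter, was at 359 CPM (338 to 382) against 513 CPM (484 to 543), a ratio of 0.700 (0.644 to 0.762) that did not reach the call. After the wide removal Slco1c1 had a ratio of 0.606 and was called lower along with Slc16a1 at 0.405, and the list's ratio was 0.875 (0.852 to 0.897).

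Other barrier and junction genes differed little. Over all genes compared 5.40% were called higher and 4.63% lower, so few or no calls in such short lists do not set them apart. None of 17 barrier enzymes, regulators and membrane genes was called in either direction in all endothelial cells, and after the wide removal the carbonic anhydrase Car4 was called lower (25.3 CPM against 38.8 CPM). The list included Itm2a at 1487 CPM against 1461 CPM, the forkhead factor Foxf2 at 81.1 CPM against 75.7 CPM and the tricellular junction gene Lsr at 165 CPM against 180 CPM. Ly6c1, a surface protein of brain capillaries, was at 254 CPM against 338 CPM (ratio 0.751), short of the call. None of 11 tight and adherens junction genes compared was called, including occludin (Ocln) at 92.8 CPM against 90.7 CPM and Tjp1 (ZO-1) at 531 CPM against 498 CPM. Of 7 genes of fenestrated or immature vessels, Plvap, the diaphragm protein of fenestrae, had 58 UMIs against 50 UMIs (ratio of CPM 0.909, 0.612 to 1.35), with at least 1 UMI in 28 mutant cells (12.2%) and 18 control cells (8.82%). Igfbp3, a secreted binding protein of insulin-like growth factors, was called lower at 43.8 CPM against 89.8 CPM (ratio 0.488, 0.388 to 0.612), and its ratio was 0.487 both without the deepest mutant cell and after the wide removal, when the phosphatase Plpp1 of that list was called lower too (42.1 CPM against 71.97 CPM).

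The summed Wnt targets depended on which endothelial cells were kept. Summed over the 16 listed endothelial Wnt targets the ratio was 1.18 (1.13 to 1.23) in all endothelial cells, 0.990 (0.943 to 1.04) without Scrublet doublets and 0.947 (0.899 to 0.998) after the wide removal, and it was 1.19 without the deepest mutant cell. The lesion gene criterion of the wide removal took mutant cells only, so that value does not come from the same treatment of both libraries. Its lesion genes also include Wif1, which the Wnt readout below counts as a target. The removal can therefore take out mutant cells with much Wnt target RNA before the targets are compared. The values after it, for the list and for single targets, cannot show the Wnt level of mutant endothelial cells. A first version of the wide removal also counted Notum, a Wnt target, among the lesion genes, and its ratio was 0.913 (0.865 to 0.964); the version without Notum replaced it after both values were seen. In all other kept cells the same list had a ratio of 3.99. Its ratio was 1.83 in mural cells, 1.72 in fibroblasts and 3.17 in microglia and macrophages. Of 13 targets compared, 2 were called higher and 1 lower in all endothelial cells, while after the wide removal none was called higher and 1 lower. Lef1, the transcription factor partner of beta-catenin, was at 245 CPM (227 to 263) in mutant cells and 198 CPM (180 to 217) in control cells, a ratio of 1.24, and at 249.97 CPM against 249.78 CPM after the wide removal (ratio interval 0.868 to 1.15). Axin2, a feedback inhibitor, was at 34.9 CPM against 21.6 CPM, and Sp5, a zinc finger target, at 39.0 CPM against 14.1 CPM, both called higher, and both had log2 ratios below 0 after the wide removal, of -0.32 and -0.16.

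Other feedback and barrier targets stood close to their control level in all endothelial cells. Apcdd1, a membrane-bound Wnt inhibitor that brain endothelium expresses, was at 375 CPM against 377 CPM, and Notum at 51.8 CPM in mutant and 49.3 CPM in control endothelial cells. Tcf7 stood at 57.3 CPM against 57.7 CPM, and Sox17, a SoxF factor of arterial and brain endothelium, at 172 CPM against 153 CPM. Fgfbp1, a carrier of fibroblast growth factors, was called lower at 13.5 CPM against 21.1 CPM from 39 and 48 UMIs. None of 9 receptors and co-receptors compared was called, with Fzd6 at 105 CPM against 85.4 CPM, Fzd4 at 41.8 CPM against 36.5 CPM, Adgra2 at 25.9 CPM against 26.0 CPM and Reck at 11.7 CPM against 10.1 CPM. Smarca4 (chromosome 9, 21616169 to 21704230, plus strand, GRCm38) was at 51.1 CPM (43.2 to 60.0) in mutant and 59.4 CPM (49.8 to 70.4) in control endothelial cells, a ratio of 0.859 (0.676 to 1.09). Ctnnb1 (chromosome 9, 120929216 to 120960507, plus strand) was at 262 CPM against 225 CPM, a level that a 3' tag reads outside the floxed exon and that says nothing about its excision.

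**Figure D3:**
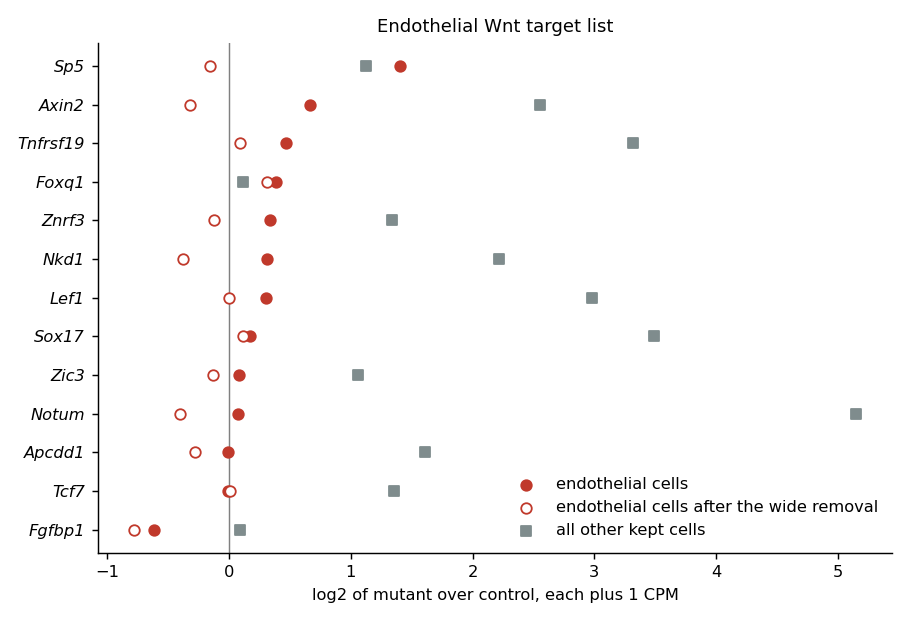
Log2 ratio of mutant over control, each plus 1 CPM (horizontal axis), of the 13 Wnt targets compared (rows) in endothelial cells, in endothelial cells after the wide removal (open symbols) and in all other kept cells (squares). Sp5 and Axin2 lay above 0 in all endothelial cells and below 0 after the wide removal, while the other cells reached a log2 ratio above 5 for Notum.

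Per cell, the Wnt readout was at least 2 UMIs of 10 target genes together, after every cell was thinned to 3000 UMIs. It was met by 152 of 212 mutant cells (71.7%, 65.1% to 77.7%) and 136 of 187 control cells (72.7%, 65.8% to 79.0%), with 17 shallower cells left out in each library. Unthinned, the shares were 94.8% in mutant and 93.1% in control cells. Microglia and macrophages, which serve as a background for free RNA, met it in 19.0% of mutant and 3.70% of control cells after thinning, at median depths of 10147.5 and 10368 UMIs. Endothelial cells therefore stood above that background in both libraries, and the background itself was higher in the mutant library. Whether the UMIs in microglia and macrophages were free RNA was not tested. Mural cells met the readout in 37.8% of mutant and 25.5% of control cells after thinning, and fibroblasts in 42.7% and 41.8%.

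Division was measured with the S phase and G2/M lists. A UMI of Mki67 or Top2a, genes of dividing cells, was found in 62 mutant (27.1%) and 53 control (26.0%) endothelial cells, and in 13.7% (9.36% to 19.1%) and 15.5% (10.6% to 21.5%) after thinning. Of 45 G2/M genes compared 12 were called lower and none higher, beside 4.63% lower over all genes compared. Their median log2 ratio was -0.42, and the summed ratio was 0.802 (0.773 to 0.831). The same list was also below 1 outside endothelium. Its ratio was 0.863 in mural cells, 0.734 in fibroblasts, 0.925 in microglia and macrophages and 0.668 in all other kept cells. Top2a itself stood at 66.6 CPM against 119 CPM, and the ubiquitin-conjugating enzyme of mitosis, Ube2c, at 61.1 CPM against 109 CPM. The 12 called genes also included Hmmr, Nuf2, Kif11 and Ttk, at log2 ratios of -1.16, -1.09, -0.96 and -0.91. With the cells that had a UMI of Mki67 or Top2a left out of both libraries the ratio was 1.06 (0.991 to 1.13). Both genes belong to the list, so this step takes out the cells that hold most of its RNA, and a ratio nearer 1 cannot be read as a result. After the wide removal the ratio was 0.895 (0.853 to 0.939), with 9 of 41 genes called lower and Mki67 called higher (49.5 CPM against 20.5 CPM). The S phase list had 1 of 36 genes called higher and 3 lower, with a ratio of 0.944 (0.898 to 0.992). Usp1 was the one higher, and Uhrf1, Pola1 and Rad51ap1 were lower, each with fewer than 100 UMIs in either library.

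Arterial and venous genes varied among the cells of both libraries. The split used here and the genes shown for it were picked after their values were seen. Gja4, the arterial gap junction protein connexin 37, had at least 2 UMIs in 45 mutant (19.7%, 14.7% to 25.4%) and 38 control (18.6%, 13.5% to 24.7%) endothelial cells. Within the mutant library, without its deepest cell, these cells held 1702 CPM of the chemokine Cxcl12 against 119 CPM in the 171 cells with no Gja4 UMI, a ratio of 14.3 (12.4 to 16.6). In the control library Cxcl12 was at 2150 CPM against 193 CPM in 144 cells, a ratio of 11.2 (9.80 to 12.8). The Notch target Hey1, the netrin receptor Unc5b, Efnb2 and Vegfc were higher in these cells in both libraries, at ratios of 6.44, 9.03, 3.86 and 6.71 in the mutant and 4.90, 7.47, 4.08 and 22.1 in the control library. Aplnr, the apelin receptor, and Nrp2, both of veins and sprouting vessels, were lower, at 0.271 and 0.268 in the mutant and 0.131 and 0.255 in the control library. Slc38a5 was also lower, at 0.585 and 0.534.

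The cells with Gja4 UMIs also held more of several barrier transporters, of which 3 are given here. Slc2a1 was higher in these cells in both libraries too, while Slc38a5 was lower. Flt1, Itm2a and Cldn5, which are not transporters, were also higher in both libraries. The rise was therefore not particular to the 3 transporters. Slco1c1 stood at 731 CPM in the cells with Gja4 UMIs against 251 CPM in cells with no Gja4 UMI in the mutant library. In the control library it stood at 927 CPM against 380 CPM. Mfsd2a was at 642 CPM against 251 CPM in the mutant and 692 CPM against 310 CPM in the control library. Slc16a1 stood at 62.0 CPM against 25.98 CPM in the mutant and 107 CPM against 47.2 CPM in the control library. Between the libraries Slco1c1 was lower in the mutant in both groups, with ratios of 0.789 (0.685 to 0.909) in cells with Gja4 UMIs and 0.660 (0.585 to 0.743) in cells without, whereas the ratios of Mfsd2a were 0.928 (0.792 to 1.09) and 0.812 (0.716 to 0.920). Igfbp3 behaved alike, with ratios of 0.466 (0.344 to 0.628) and 0.379 (0.254 to 0.558), as did Slc16a1 with 0.578 (0.362 to 0.922) and 0.550 (0.379 to 0.792). Klf2 was higher in the mutant in both groups, at 1.49 (1.34 to 1.67) and 1.72 (1.61 to 1.83). Other genes differed more between the libraries within the cells with Gja4 UMIs. Mgp, at 614 CPM against 33.2 CPM, had a ratio of 18.5 (10.7 to 35.1). Eln, at 262 CPM against 2.55 CPM, had a ratio of 102 (18.1 to 4072). The ratio of Fbln5 was 2.40 (1.81 to 3.22), while Vegfc was lower in the mutant, at 0.446 (0.326 to 0.607). The cause of these differences was not tested.

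**Figure D4:**
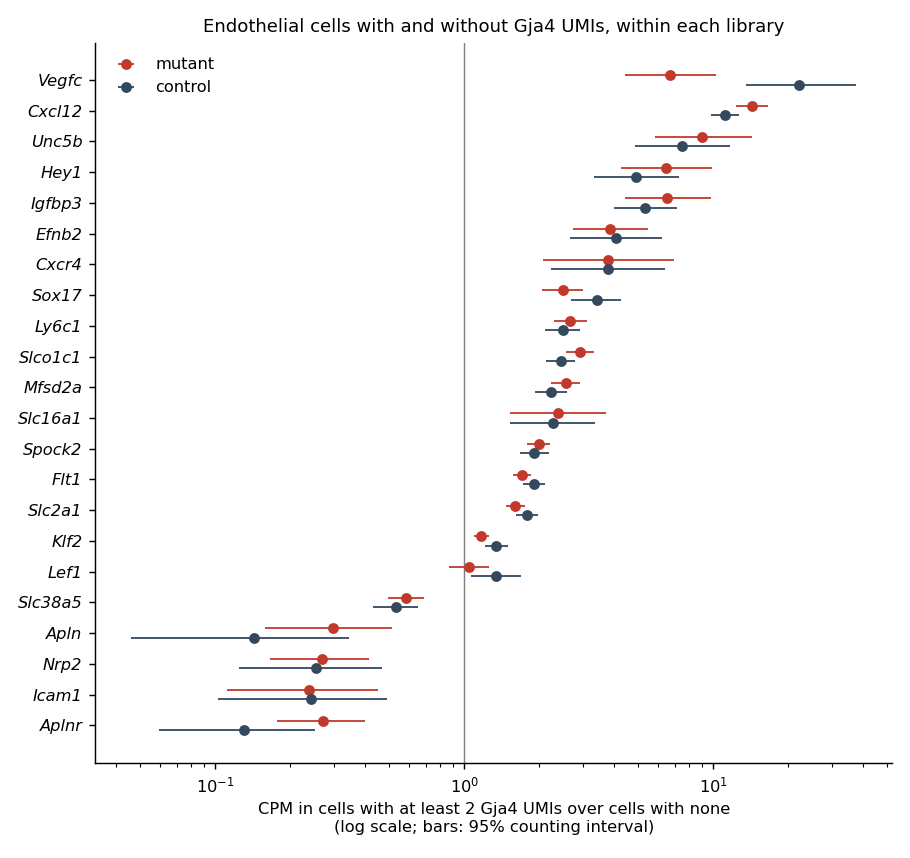
CPM in endothelial cells with at least 2 Gja4 UMIs over CPM in those with none (horizontal axis, logarithmic; bars, 95% counting interval) for 22 genes (rows), within the mutant and the control library, without the deepest mutant cell. Cxcl12, Hey1, Unc5b and Vegfc lay above 1 and Aplnr, Nrp2, Icam1 and Apln below 1 in both libraries.

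The lists of vessel identity held few called genes, beside 5.40% higher and 4.63% lower over all genes compared. Their summed ratios were 0.644 for arterial, 0.916 for venous and 1.01 for capillary genes. In the control library the arterial list stood at 1036 CPM in endothelial cells and 1428 CPM in the other cells, and the venous list at 7993 CPM and 3969 CPM. The arterial and venous sums therefore also hold much RNA that is not particular to vessels. The arterial list had a ratio of 0.645 in all other kept cells and 0.278 in microglia and macrophages, and in endothelial cells it was 0.864 (0.787 to 0.949) after the wide removal, when Hey1 was called lower (35.1 CPM against 55.7 CPM) and Stmn2 was not. Of 10 arterial genes, Fbln5, an elastic fibre protein, was called higher at 83.5 CPM against 32.1 CPM and Stmn2 lower, but Fbln5 came from 16 mutant and 13 control cells, with 78.5% of its mutant UMIs in 3 cells, and Stmn2 is also a neuronal gene. Of 9 venous genes the adhesion molecule Vcam1 was called higher at 37.3 CPM against 7.04 CPM (108 and 16 UMIs; ratio 5.29, 3.11 to 9.59), below its 105 CPM in the other mutant cells, and the chemokine receptor Ackr1 lower from 12 and 23 UMIs. No capillary gene of 9 was called in all endothelial cells, but after the wide removal Rgcc and Meox1 were called higher and Cxcl12 and Car4 lower, with a summed ratio of 0.918 (0.879 to 0.959). Of 14 tip cell genes 3 were called lower, namely Igfbp3, the chemokine receptor Cxcr4 (18.6 CPM against 30.8 CPM) and Angpt2 (9.32 CPM against 18.1 CPM), and none higher; after the wide removal Angpt2 was not called and Trp53i11 was called higher. Of 11 VEGF and angiopoietin genes Angpt1 and Angpt2 were called lower, and neither after the wide removal, whereas Kdr, the main VEGF receptor, stood at 636 CPM against 572 CPM and Tek, the angiopoietin receptor, at 216 CPM against 222 CPM.

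Few genes of the remaining signalling, matrix and metabolic lists were called. Over all genes compared the shares were 5.40% higher and 4.63% lower, so few or no calls in such short lists do not set them apart. None of 10 Notch genes was called, with Notch1 at 98.0 CPM against 91.6 CPM and Dll4 at 45.6 CPM against 51.1 CPM, and after the wide removal Nrarp was called higher and Hey1 lower. Of 14 TGF-beta and BMP genes Id2 and Ltbp4 were called lower, and Id2, at 63.2 CPM against 116 CPM, had a log2 ratio of 0.24 after the wide removal. None of 15 basement membrane genes was called, although their summed ratio was 1.16 (1.14 to 1.19), with Col4a1, a collagen of the vessel's basement membrane, at 930 CPM against 736 CPM and Sparcl1 at 1407 CPM against 1090 CPM. That list had a ratio of 0.846 in all other kept cells. None of 9 hypoxia and glycolysis genes was called. None of 9 interferon and antigen presentation genes was called, with a summed ratio of 0.870 (0.827 to 0.916), and Isg15 at 60.4 CPM against 83.7 CPM. After the wide removal that ratio was 0.801 (0.753 to 0.851), the median log2 ratio was -0.41, and Isg15 was called lower (71.4 CPM against 119 CPM).

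**Figure D5:**
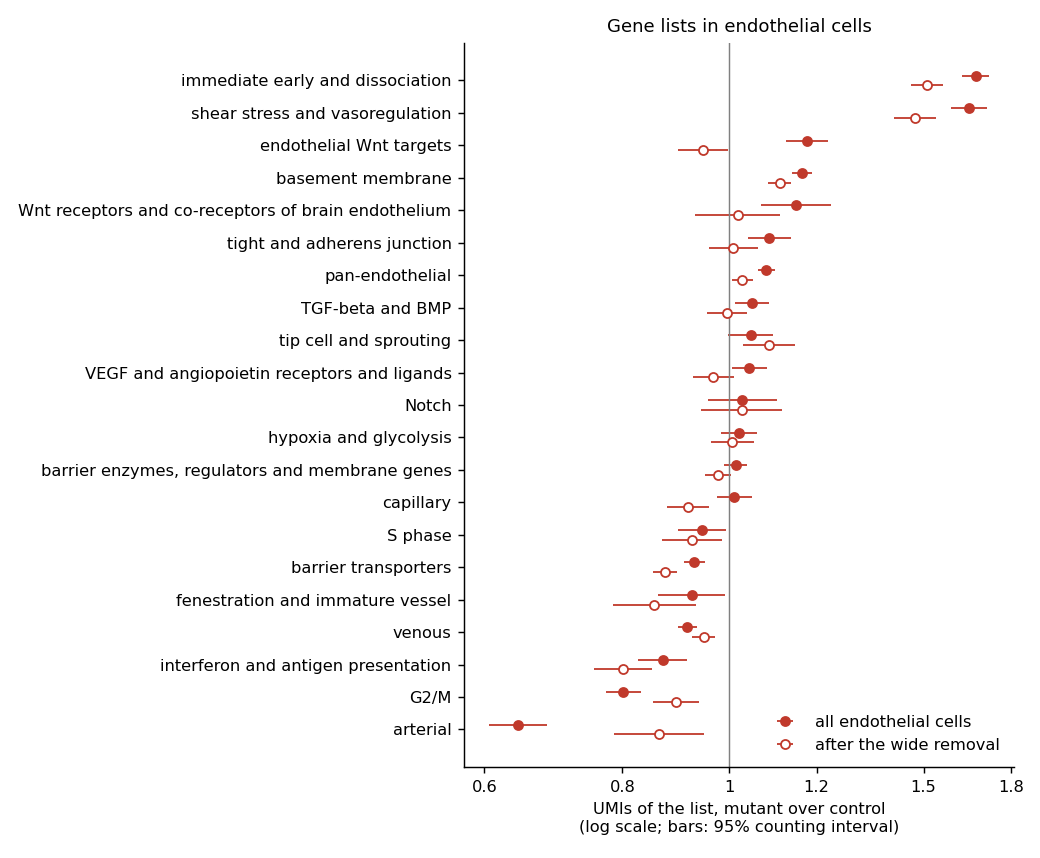
Ratio of summed UMIs, mutant over control (horizontal axis, logarithmic; bars, 95% counting interval), for the 21 compared gene lists (rows), in all endothelial cells and after the wide removal (open symbols). The immediate early and the shear stress lists stood farthest above 1 in both, at 1.67 and 1.65 in all endothelial cells, and the Wnt target list was above 1 in all endothelial cells and below 1 after the wide removal.

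Among genes at 4 times or more their level in the other cells, the largest higher ratios beyond those named were Lrrc8c, a subunit of volume-regulated anion channels, at 125 CPM against 68.2 CPM, the secreted protein Cthrc1 at 111 CPM against 62.1 CPM and the caveolar protein Cavin2 at 147 CPM against 85.4 CPM. The lower ones were Xaf1, an interferon-induced gene, at 34.5 CPM against 52.4 CPM and, short of the call, Tmem88 (35.2 and 52.4 CPM), Pcp4l1 (49.4 and 70.01 CPM) and Ly6a (59.4 and 79.3 CPM). Cdh18 was lower too, at 2.07 CPM against 62.1 CPM, with all of its 141 control UMIs in 3 cells. Lrrc8c, Cthrc1 and Xaf1 were called after the wide removal and Cavin2 was not.

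Without that condition on the other cells, the largest differences were in genes of other cell types. Wif1 (108 CPM against 0.440 CPM), Fstl4 (166 and 2.20 CPM), Adamts19 (58.3 and 0.440 CPM), Pde1a (74.9 and 1.32 CPM) and Rgs6 (139 and 3.96 CPM) were the 5 highest, each below its level in the other mutant cells, which was 302 CPM for Wif1 and 548 CPM for Fstl4. After the wide removal Wif1 was at 9.22 CPM against 0.706 CPM and Fstl4 at 16.1 CPM against 0.706 CPM. Lower were Ttr, the choroid plexus transthyretin, at 278 CPM against 2838 CPM with 95.5% of its control UMIs in 3 cells, and Pf4, Mia and Nefl, with 93.2%, 85.5% and 53.1% of their control UMIs in 3 cells.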

How the data were processed

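Whole cerebella were dissociated with papain and DNase, sorted with 7-AAD to exclude dead cells, and pooled, with 3 samples per genotype and 40000 cells loaded per pool, per the labels' protocols. The authors deposited raw UMI counts for each barcode as whole numbers, and the submitters' processing notes name Cell Ranger 7.0.1 and mm10. Annotation release, intron use and cell calling were not given in the sources used here. Per library, the mutant held 21596 barcodes with 220565819 UMIs and the control 21457 with 225512196. GENCODE M21 (GRCm38) listed 32158 of the 32285 gene IDs.

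Endothelial cells were chosen as the report gives, and the gene lists and the choice of cells were made with earlier results of these data known. UMIs were summed over endothelial cells per library and scaled to CPM, with a pseudocount of 1 CPM for log2 ratios. With 1 library per genotype there is no test. Sums carry exact Poisson, ratios exact conditional binomial and shares Clopper-Pearson intervals at 95%, for counting error only; a count of 0 allows up to 3 counts, or 1.04 CPM for mutant and 1.32 CPM for control cells. Doublets were kept, and Scrublet (scanpy 1.11.5, expected rate 16%, automatic threshold) was an alternative, as was TMM in edgeR 4.0.16, used as a scale only. The wide removal left out cells with at least 3 UMIs of pericyte, microglia or fibroblast genes, 5 of lesion genes other than Notum, 10 of 7 neuronal genes, 20 of 7 choroid plexus genes or over 10% haemoglobin UMIs; it and the values without the deepest mutant cell were chosen after seeing the data, and the removal was redefined once, to leave Notum out, after its values were seen. The other cell types were mural cells, fibroblasts and microglia and macrophages, chosen by their own markers.

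Named genes were the 10 largest log2 ratios each way above a 50 CPM minimum in the higher of both libraries and at least 4 times the other cells' level, the 5 largest each way without that condition, up to 4 called genes per list, 10 fixed genes, and the 15 highest genes over other cells at 100 CPM or more; further list genes, the promoters and motifs, and the Gja4 split were picked after their values were seen. Steps were tested on simulated Poisson counts.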

Additional observations from a re-analysis of the deposited data

How the results depend on the processing

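No paired analysis was possible because each genotype had 1 library. The mutant over control ratios of the share of endothelial cells (1.07 to 1.17), of the Wnt readout (0.898 to 1.04) and of Mki67 or Top2a (0.790 to 1.04) stayed within their counting intervals under the alternatives run for them. The Wnt shares themselves did not: they were 86.0% in mutant and 82.5% in control cells at 5000 UMIs, and 72.7% and 81.0% after the wide removal. The last pair is limited because the removal used Wif1, a gene of the readout, and its lesion criterion took mutant cells only. The barrier transporter ratio, 0.930, stayed below 1: stricter member thresholds 0.866, looser 0.982, Scrublet doublets removed 0.880, mean of per-cell CPM 0.884, cycling cells left out 0.886 and wide removal 0.875. The Wnt target ratio, 1.18, was 1.09 with the stricter and 1.25 with the looser threshold, 1.10 when the rule was applied to cells thinned to 5000 UMIs, 1.02 as a mean of per-cell CPM, 1.10 without cycling cells, and below 1 at 0.990 without Scrublet doublets and 0.947 after the wide removal. The first wide removal, which counted Notum among the lesion genes and left 165 mutant and 157 control cells, gave 0.913 for Wnt targets, 0.859 for barrier transporters, 0.918 for G2/M and 318 genes higher and 339 lower; it was replaced after both versions were seen. The G2/M ratio, 0.802, was 0.655 without Scrublet doublets, 0.924 as a mean of per-cell CPM, 0.895 after the wide removal and 1.06 without cycling cells, which were chosen by genes of that list.

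With a filter of 50 CPM, which leaves fewer genes to compare, 135 genes were called higher and 94 lower, and after the wide removal 307 were higher. Of the calls 53.8% were higher, and 65.3% without Scrublet doublets. Among 46 named and called genes, 25 kept their call after the wide removal, 38 without Scrublet doublets, 31 without cycling cells and 42 without the deepest mutant cell. Log2 ratios changed sign for Angpt1 with the stricter threshold (0.16), for Cdh18 (0.55), Axin2 (-0.10) and Id2 (0.10) without Scrublet doublets, for Rad51ap1 (0.061), Nuf2 (0.32) and Ttk (0.52) without cycling cells, and for Mia (0.10), Ttr (0.9992), Sp5 (-0.16), Axin2 (-0.32) and Id2 (0.24) after the wide removal, and for Sp5 (-0.10), Axin2 (-0.39) and Id2 (0.20) after its first version, where the Ttr log2 ratio was 0.9996; the cause was not tested. With 229 and 204 cells, genes near 10 CPM rest on about 20 to 30 UMIs per library.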
